A study of Mus musculus with 6 samples.

Results

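Bcat2, Bckdha, Bckdhb, Dbt, Bckdk, Ivd, Mccc1, Mccc2, Hibch and Hibadh encode enzymes, subunits and a regulator of branched-chain amino acid (BCAA) degradation. These 10 genes were chosen by symbol, not by a rule on their values, from the 17975 genes measured in the livers. Earlier results of these data were known at that time. All 10 were present, and all 10 were among the 13805 genes that passed the filter on low counts.

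RNA-seq was performed on whole liver from 3 mice in which NEK7 had been deleted in hepatocytes (Hom, NEK7 fl/fl-Alb-Cre+) and 3 wild-type mice (WT), 1 liver per mouse. NEK7 is a serine/threonine kinase. The Alb-Cre transgene is driven by the albumin promoter, which is active in hepatocytes and in the hepatoblasts from which hepatocytes and cholangiocytes arise. Whether the WT mice carried floxed alleles or the Cre transgene, and the age and sex of these 6 mice, are not given in the sources used here.

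Leucine, isoleucine and valine share the first steps of their breakdown inside mitochondria. A transaminase removes the amino group, and the branched-chain ketoacid dehydrogenase (BCKDH) complex then decarboxylates the ketoacid irreversibly, which commits it to oxidation. BCKDH is switched off by phosphorylation of its E1 alpha subunit and switched on when the phosphate is removed. The resulting acyl-CoA esters enter separate arms for each amino acid, and these end in acetyl-CoA, acetoacetate or propionyl-CoA. Liver is known for low transaminase and high BCKDH activity, so that it mostly oxidizes ketoacids released by muscle.

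Of the 10 genes, 7 were lower in Hom livers and 0 were higher (edgeR quasi-likelihood test, Benjamini-Hochberg adjusted p under 0.05 over all genes tested). Lower levels were found for Bckdha, Dbt, Ivd, Mccc1, Mccc2, Hibch and Hibadh, whereas Bcat2, Bckdhb and Bckdk did not pass the test. The count of 0 higher genes was the same at an unadjusted p under 0.05 and with DESeq2. Among all 13805 genes tested, 20.1% were lower, 21.5% were higher and 41.7% changed in either direction. The median log2 fold change (Hom minus WT) was -0.73 over the 10 genes and -0.0018 over all genes. The same 7 genes had every Hom liver under every WT liver, a pattern seen in 27.0% of all genes (the opposite one in 28.7%, either one in 55.6%).

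**Figure D1:**
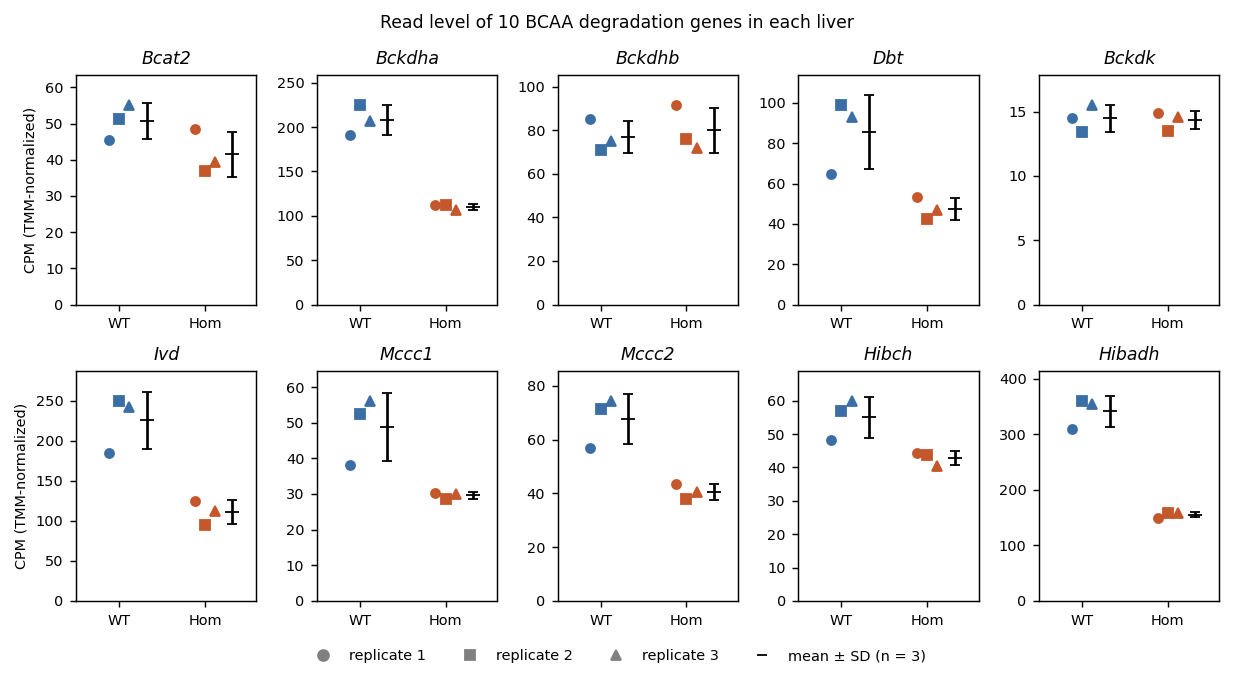
Level of each gene in CPM (TMM-normalized counts scaled to library size, linear axis from 0) in the 3 WT (blue) and 3 Hom (orange) livers, with the marker shape giving the replicate and the bars the mean ± SD. The groups are separated for 7 genes and overlap for Bcat2, Bckdhb and Bckdk.

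Nek7 itself had 1127, 1077 and 1036 counts in WT livers and 310, 439 and 387 in Hom livers, 25.2% of the WT level after scaling. The remaining Nek7 RNA was not assigned to cell types. Library totals were 19349418 to 19730236 estimated counts. WT replicate 1 differed more from the other WT livers (chi-square per degree of freedom of 143 and 163) than these differed from each other (23.8), and Hom replicate 1 stood apart in the same way (85.3 and 79.9 against 26.6). Hom replicate 1 also had 0 counts of the Y-linked genes Ddx3y and Kdm5d, of which the other livers had 243 or more. Of the Y-linked Uty it had 149 counts (464 to 725 in the other livers) and of Eif2s3y 4 (582 to 1017). Without WT replicate 1 and Hom replicate 1, 8 of the 10 genes were lower and 0 higher, with Bcat2 added. That fit was chosen after the data were seen.

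The identity of the tissue was checked with marker lists. Of 34 hepatocyte markers, 19 were lower in Hom livers, and their median difference was -0.58 on the log2 scale. With TMM scaling their summed level was 212006 to 252059 CPM in WT and 131388 to 187344 CPM in Hom livers, without overlap. The sum was not compared under other scalings. Much of it was Alb, with a mean of 114169 CPM in WT and 47689 CPM in Hom livers. The means of Trf (18031 and 28659 CPM) and Hpx (4358 and 9640 CPM) were higher in Hom livers without passing the threshold. The counts of markers also followed the scaling. Scaled by library totals alone, 9 were lower and 4 higher (median -0.13), and with factors that hold these markers level 8 were lower and 8 higher. Of 12 cholangiocyte markers, 11 were higher (summed level 56.1 to 61.4 CPM in WT, 193 to 239 CPM in Hom). Of 14 stellate cell markers, 8 were higher and 2 lower (385 to 460.0 CPM in WT against 798 to 877 CPM in Hom), and of 14 macrophage markers 4 were higher and 3 lower (258 to 629.9 CPM against 355 to 476 CPM, and 7 higher and 2 lower with library totals alone). Of 13 endothelial markers, 1 was higher and 4 were lower (295 to 394 CPM against 263 to 268 CPM), but with library totals alone 4 were higher and 2 lower. Lymphocyte markers summed to 6.16 to 9.88 CPM in WT and 8.12 to 14.6 CPM in Hom livers, with 1 of 6 tested markers higher. In bulk liver, fewer hepatocytes and less RNA of a gene per hepatocyte cannot be told apart, and the part of the cell composition in the differences below was not tested.

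The direction for Hibch, Bcat2 and Bckdk, and the number of genes past the threshold, depended on how libraries were scaled. TMM scaling sets the typical gene to no change, and its factors were 0.806 to 0.924 in WT and 1.09 to 1.23 in Hom livers. With libraries scaled by their totals alone, the median over all genes shifted to 0.45 on the log2 scale and that of the 10 genes to -0.27. Under that scaling 5 genes were lower (Bckdha, Dbt, Ivd, Mccc2 and Hibadh) and 2 were higher (Bckdhb and Bckdk). With factors that hold the hepatocyte markers level, the median of all genes was 0.60 and that of the 10 genes -0.13, with Bckdha, Ivd and Hibadh lower and the same 2 genes higher. A change of library factors shifts all genes nearly alike, so the distance of the 10 genes from the typical gene was fixed by construction. The sign of the smaller differences followed the scaling.

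**Figure D2:**
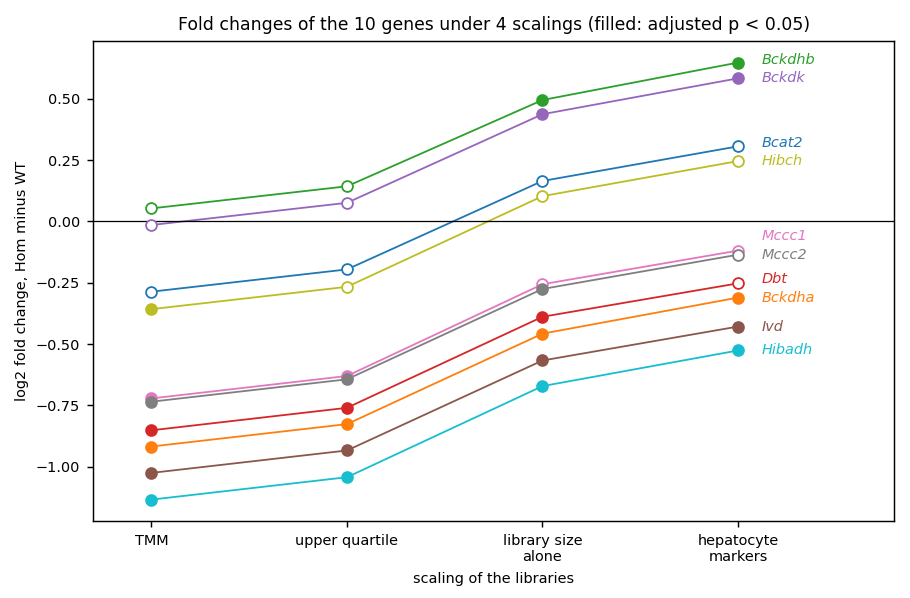
Log2 fold change (Hom minus WT) of each of the 10 genes under 4 scalings of the libraries, with filled points for an adjusted p under 0.05 in edgeR's quasi-likelihood test. The lines run nearly parallel, Bckdha, Ivd and Hibadh stay below 0 and filled throughout, and Bcat2, Bckdk and Hibch cross 0 (Mccc1 lies partly under Mccc2).

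Bcat2 (gene ID 12036) encodes the mitochondrial branched-chain aminotransferase, which catalyses the first and reversible step. Its level was 45.5, 51.2 and 55.2 CPM in WT livers and 48.6, 36.8 and 39.3 CPM in Hom livers. The groups overlapped, because Hom replicate 1 lay above WT replicate 1. The mean was 50.7 ± 4.89 CPM (SD, n = 3) in WT and 41.5 ± 6.22 CPM (n = 3) in Hom, and the log2 fold change was -0.29 (SE 0.13, 95% interval -0.59 to 0.016, adjusted p = 0.112 with edgeR's quasi-likelihood test). Without Hom replicate 1 it passed the threshold, with a log2 fold change of -0.41 and an adjusted p of 0.0291. WT replicate 3, the highest WT liver for Bcat2, also had the highest summed level of 5 skeletal muscle markers (15.9 CPM, against 0.701 to 5.32 CPM in the other livers), and muscle is a tissue of high Bcat2 expression. The pancreas is another, and the pancreatic acinar markers in the table summed to 8.26 to 25.8 CPM in WT and 2.80 to 4.66 CPM in Hom livers, with Prss2 at 0 counts in 5 livers. Adipocyte markers summed to 0.112 to 1.84 CPM in WT and 0.371 to 1.96 CPM in Hom livers. The part of such RNA in the Bcat2 level was not tested. Bcat1, the cytosolic isoenzyme, had 0, 0 and 1 counts in WT and 2, 2 and 2 in Hom livers and was not tested.

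Slc25a44, the mitochondrial carrier that brings BCAA to this enzyme, had a log2 fold change of -0.55 and was lower (SE 0.097, adjusted p = 0.00520), with no overlap between groups. It did not pass with library totals alone (-0.090, adjusted p = 0.418). Of 5 transporters of the plasma membrane, 1 changed, Slc43a2, which was higher (1.33, adjusted p = 0.00168), and the lowest value was that of Slc7a5 (-0.49, adjusted p = 0.129). The median of these 5 was -0.28 with TMM and 0.16 with library totals alone, while Slc43a2 was higher under both.

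Bckdha (gene ID 12039) encodes the E1 alpha subunit of BCKDH, the decarboxylase subunit that carries the regulatory phosphorylation. It was present at 191, 225 and 207 CPM in WT livers and at 112, 112 and 106 CPM in Hom livers. All Hom livers lay within a narrow range far below the lowest WT liver. The mean fell from 208 ± 17.1 to 110 ± 3.26 CPM (SD, n = 3 each), 52.9% of the WT level, with a log2 fold change of -0.92 (SE 0.093, adjusted p = 0.000777 with edgeR's quasi-likelihood test).

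Bckdhb (gene ID 12040) encodes E1 beta, the partner of E1 alpha in the same heterotetramer. Its level was 85.2, 70.9 and 75.0 CPM in WT livers and 91.8, 76.1 and 71.9 CPM in Hom livers. The groups overlapped, and replicate 1 was the highest liver in each. The means were 77.0 ± 7.33 and 79.9 ± 10.5 CPM (SD, n = 3 each), a log2 fold change of 0.05 (SE 0.12, 95% interval -0.23 to 0.33, adjusted p = 0.746). With library totals alone it was 0.49 (adjusted p = 0.0193), close to the median of all genes under that scaling.

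Dbt (gene ID 13171) encodes E2, the dihydrolipoyl transacylase that forms the core of the complex. It was measured at 64.6, 99.2 and 93.1 CPM in WT and at 53.3, 42.2 and 46.8 CPM in Hom livers. The groups did not overlap, and WT replicate 1 was the WT liver closest to the Hom livers. The mean fell from 85.6 ± 18.5 to 47.4 ± 5.57 CPM (SD, n = 3 each), with a log2 fold change of -0.85 (SE 0.17, adjusted p = 0.00882). With library totals alone it was -0.39 (adjusted p = 0.0380). With the hepatocyte marker factors it was -0.25 and missed the threshold (adjusted p = 0.182). Dld, the E3 subunit that BCKDH shares with other ketoacid dehydrogenases, had a log2 fold change of -0.25 (adjusted p = 0.0782) with overlapping groups. Thus 2 of the 4 genes for the catalytic subunits of the complex were lower with TMM scaling, Bckdha and Dbt.

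The E1 subunits were also compared as a ratio within each liver, which does not depend on the scaling between libraries. The log2 ratio of Bckdha to Bckdhb counts was 1.17, 1.67 and 1.46 in WT livers and 0.29, 0.55 and 0.56 in Hom livers. Every Hom liver lay under every WT liver, with a mean difference of -0.96. The exact two-sided permutation test gave p = 0.1, the smallest that 3 against 3 livers allow, and 0.167 after Benjamini-Hochberg adjustment over the 5 ratios compared. Per gene length, the ratio of Bckdha to Bckdhb in TPM (transcripts scaled to a fixed library total) was 1.78, 2.54 and 2.18 in WT and 0.971, 1.16 and 1.17 in Hom livers.

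Because the paired subunits differed in this way, the 250 bases before the start of Bckdha and Bckdhb are shown (RefSeq, GRCm38.p6, gene strand, 5′ to 3′). They lie at chr7:25658762-25659011 on the minus strand and at chr9:83924887-83925136 on the plus strand, and the latter is the first of 2 starts listed for Bckdhb. Capitals mark the CCAAT box (CCAAT, or ATTGG on the other strand) and the GC box (GGGCGG, or CCGCCC).
Bckdha: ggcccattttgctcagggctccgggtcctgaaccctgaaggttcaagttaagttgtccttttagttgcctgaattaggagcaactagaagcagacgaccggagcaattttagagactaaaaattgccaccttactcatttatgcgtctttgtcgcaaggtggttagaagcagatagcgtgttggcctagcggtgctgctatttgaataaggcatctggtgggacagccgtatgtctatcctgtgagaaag
Bckdhb: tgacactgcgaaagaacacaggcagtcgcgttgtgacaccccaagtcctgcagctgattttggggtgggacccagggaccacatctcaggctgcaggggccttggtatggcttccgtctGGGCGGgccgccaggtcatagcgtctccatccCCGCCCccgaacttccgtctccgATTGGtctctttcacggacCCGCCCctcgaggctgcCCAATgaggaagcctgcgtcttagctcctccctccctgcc
The Bckdha window held neither motif, and the Bckdhb window shown held 2 CCAAT and 3 GC boxes. The window of the second Bckdhb start held neither motif, so the contrast with Bckdha depends on the start taken. CCAAT was found in 33.8% and GGGCGG in 32.7% of 32851 mouse promoter windows of this length. The GC content was 47.6% for Bckdha, 63.2% for the Bckdhb window shown and 36.4% for that of the second Bckdhb start. A match in these letters is a description of the sequence, not of a bound site.

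Bckdk (gene ID 12041) encodes the kinase that phosphorylates E1 alpha and inhibits the complex. Its level was 14.5, 13.4 and 15.5 CPM in WT and 14.9, 13.5 and 14.6 CPM in Hom livers. The groups overlapped almost completely. The means were 14.5 ± 1.07 and 14.3 ± 0.715 CPM (SD, n = 3 each), a log2 fold change of -0.01 (SE 0.10, 95% interval -0.26 to 0.23, adjusted p = 0.918). With library totals alone it was 0.44 (adjusted p = 0.0251), again near the shift of all genes.

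Ppm1k, the mitochondrial phosphatase that removes the phosphate and activates the complex, was measured at 39.4, 50.2 and 59.97 CPM in WT and 29.96, 32.1 and 40.5 CPM in Hom livers. It passed the threshold with a log2 fold change of -0.54 (SE 0.18, adjusted p = 0.0450), although Hom replicate 3 lay above WT replicate 1. With library totals alone its log2 fold change was -0.075 (adjusted p = 0.735).

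Bckdk was compared with its substrate subunit, the core subunit and the opposing phosphatase within each liver. The log2 ratio of Bckdk to Bckdha counts was -3.72, -4.07 and -3.73 in WT and -2.91, -3.05 and -2.86 in Hom livers, a difference of 0.90. That of Bckdk to Dbt was -2.16, -2.89 and -2.58 in WT and -1.84, -1.64 and -1.68 in Hom livers, a difference of 0.82. Both ratios separated the groups, each with an exact permutation p of 0.1 (adjusted 0.167), the smallest possible here. The log2 ratio of Bckdk to Ppm1k was -1.45, -1.90 and -1.95 in WT and -1.01, -1.25 and -1.47 in Hom livers. These groups overlapped in that Hom replicate 3 lay under WT replicate 1, and the difference of 0.52 had an exact permutation p of 0.2 (adjusted 0.25). Phosphorylation itself was not measured.

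**Figure D3:**
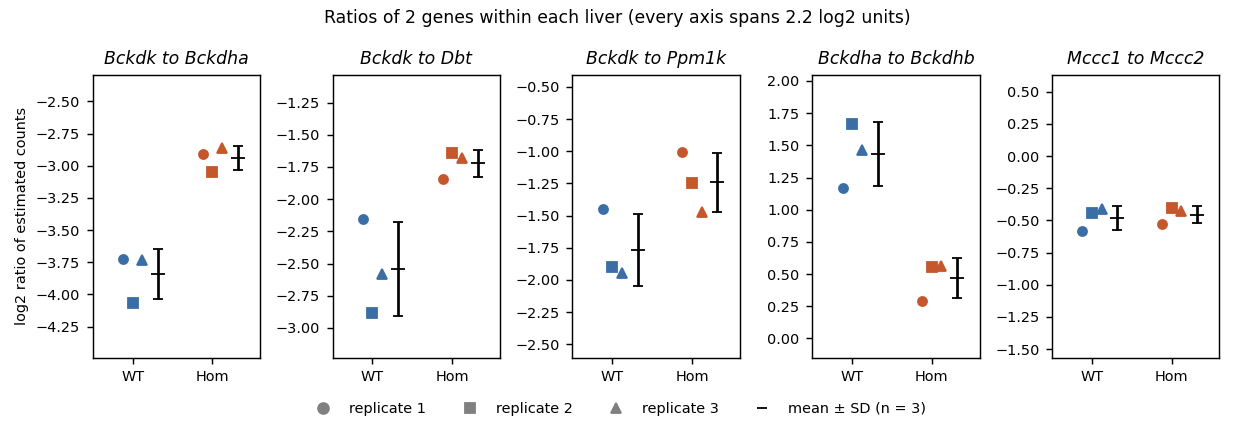
Log2 ratio of the estimated counts of 2 genes in each WT (blue) and Hom (orange) liver, with the mean ± SD, on axes of equal span. Bckdk to Bckdha, Bckdk to Dbt and Bckdha to Bckdhb separate the groups, Bckdk to Ppm1k overlaps, and Mccc1 to Mccc2 differs by 0.03.

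The promoter window of Bckdk (chr7:127903823-127904072, plus strand) is given for comparison with that of its substrate subunit above, with the same marking.
Bckdk: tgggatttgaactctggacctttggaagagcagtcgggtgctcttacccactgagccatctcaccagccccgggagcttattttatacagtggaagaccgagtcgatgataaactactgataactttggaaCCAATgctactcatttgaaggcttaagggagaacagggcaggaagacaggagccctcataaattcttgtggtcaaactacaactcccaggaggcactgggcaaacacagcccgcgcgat
It held 1 CCAAT box, no GC box and the letters TATAAA on the opposite strand (tttata as printed). Of all windows, 12.4% held TATAAA on either strand.

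Ivd (gene ID 56357) encodes isovaleryl-CoA dehydrogenase, the first enzyme of the leucine arm. Its level was 185, 250 and 242 CPM in WT livers and 125, 95.2 and 113 CPM in Hom livers. The groups were well apart, and WT replicate 1 and Hom replicate 1 were the pair closest to each other. The mean fell from 226 ± 35.2 to 111 ± 14.9 CPM (SD, n = 3 each), 49.1% of the WT level, with a log2 fold change of -1.03 (SE 0.15, adjusted p = 0.00285 with edgeR's quasi-likelihood test).

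Mccc1 and Mccc2 encode the subunits of methylcrotonyl-CoA carboxylase, the biotin enzyme that follows Ivd in leucine breakdown. Mccc1 (gene ID 72039), the subunit that carries the biotin, was measured at 38.0, 52.4 and 56.1 CPM in WT and at 30.2, 28.5 and 30.1 CPM in Hom livers. Mccc2 (gene ID 78038), the carboxyltransferase subunit, was measured at 57.0, 71.4 and 74.4 CPM in WT and at 43.6, 37.8 and 40.4 CPM in Hom livers. Neither gene showed overlap, and for both WT replicate 1 was the lowest WT liver. Mccc1 fell from 48.8 ± 9.55 to 29.6 ± 0.933 CPM (SD, n = 3 each), with a log2 fold change of -0.72 (SE 0.15, adjusted p = 0.00835). Mccc2 fell from 67.6 ± 9.29 to 40.6 ± 2.92 CPM (SD, n = 3 each), with a log2 fold change of -0.74 (SE 0.12, adjusted p = 0.00378). With library totals alone Mccc1 had a log2 fold change of -0.26 (adjusted p = 0.114) and Mccc2 one of -0.28 (adjusted p = 0.0406).

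The ratio between these subunits moved little. The log2 ratio of Mccc1 to Mccc2 counts was -0.58, -0.45 and -0.41 in WT and -0.53, -0.41 and -0.42 in Hom livers. The groups overlapped, the difference of 0.03 was within the spread of either group, and the exact permutation p was 0.6 (adjusted 0.6). Whereas the E1 subunits of BCKDH differed by close to 1 log2 unit between genotypes, the carboxylase subunits fell by nearly the same factor.

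The promoter windows of this second subunit pair are shown beside those of the E1 pair, at chr3:36000679-36000928 (Mccc1, minus strand) and chr13:100015640-100015889 (Mccc2, minus strand), with the same marking.
Mccc1: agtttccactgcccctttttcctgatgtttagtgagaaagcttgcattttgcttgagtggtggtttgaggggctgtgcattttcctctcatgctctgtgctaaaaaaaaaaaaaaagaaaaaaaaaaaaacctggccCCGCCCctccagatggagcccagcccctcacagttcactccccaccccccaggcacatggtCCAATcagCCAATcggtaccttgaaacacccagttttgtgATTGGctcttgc
Mccc2: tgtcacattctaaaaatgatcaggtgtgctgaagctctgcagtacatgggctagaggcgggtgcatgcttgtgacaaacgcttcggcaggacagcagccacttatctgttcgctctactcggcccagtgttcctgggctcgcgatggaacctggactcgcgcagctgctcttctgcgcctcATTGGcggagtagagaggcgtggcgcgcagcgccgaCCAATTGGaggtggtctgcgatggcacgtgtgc
Each held 3 CCAAT boxes, of which the Mccc2 window held an overlapping pair on opposite strands (CCAATTGG), and the Mccc1 window also held 1 GC box. Over all 10 genes, 9 matched an entry (Dbt had none used here) and these gave 11 windows. CCAAT was present in 6 of the 11 and GGGCGG in 4. The nuclear receptor half-site AGGTCA (14% of all windows), the E-box CACGTG (6.02%), the NRF1 motif (4.98%) and TATAAA (12.4%) were each present in 1. The Ivd window held 4 CCAAT boxes, and the Hibadh window 1.

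Downstream in the leucine arm, Auh, a methylglutaconyl-CoA hydratase, had a log2 fold change of -0.53 (SE 0.13, adjusted p = 0.0151). Its groups did not overlap, but it missed the threshold with library totals alone (-0.063, adjusted p = 0.654) and after the correction for gene length (-0.37, adjusted p = 0.0585).

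Hibch (gene ID 227095) encodes 3-hydroxyisobutyryl-CoA hydrolase of the valine arm. Its level was 48.1, 56.8 and 59.9 CPM in WT livers and 44.2, 43.8 and 40.6 CPM in Hom livers. The groups did not overlap, but the gap between WT replicate 1 and Hom replicate 1 was small. The mean fell from 55.0 ± 6.10 to 42.9 ± 2.01 CPM (SD, n = 3 each), with a log2 fold change of -0.36 (SE 0.10, 95% interval -0.59 to -0.12, adjusted p = 0.0271). This was the smallest difference of the 7, and it missed the threshold with upper-quartile scaling (-0.27, adjusted p = 0.0662) and turned to 0.10 with library totals alone (adjusted p = 0.383). It also missed the threshold without WT replicate 2 (adjusted p = 0.0801), WT replicate 3 (0.0743), Hom replicate 2 (0.0684) or Hom replicate 3 (0.0953), and after a correction for gene length (0.0898).

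Hibadh (gene ID 58875) encodes 3-hydroxyisobutyrate dehydrogenase, the next enzyme of the valine arm. It was measured at 309.8, 360.3 and 354 CPM in WT livers and at 150.3, 158 and 158 CPM in Hom livers. The groups were far apart, with the 3 Hom livers close together. The mean fell from 341 ± 27.6 to 156 ± 4.54 CPM (SD, n = 3 each), 45.6% of the WT level, with a log2 fold change of -1.13 (SE 0.10, adjusted p = 0.000508 with edgeR's quasi-likelihood test). Hibch and Hibadh act on successive intermediates, and Hibadh lay at the 4.30th and Hibch at the 23.2nd percentile of the log2 fold changes of all genes.

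The remaining valine-arm genes were also lower. Acad8, isobutyryl-CoA dehydrogenase, had a log2 fold change of -0.92 (SE 0.076, adjusted p = 0.000462). Echs1, an enoyl-CoA hydratase, had one of -0.61 (SE 0.10, adjusted p = 0.00411). Aldh6a1, methylmalonate semialdehyde dehydrogenase, had one of -0.90 (SE 0.14, adjusted p = 0.00306). None of the 3 overlapped between groups, and Echs1 missed the threshold with library totals alone (-0.15, adjusted p = 0.222).

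In the isoleucine arm, Acadsb (-0.95, SE 0.15, adjusted p = 0.00310), Hsd17b10 (-1.23, SE 0.15, adjusted p = 0.00146) and the thiolase Acat1 (-1.35, SE 0.14, adjusted p = 0.000881) were lower in log2 fold change. Acat1 had the lowest value of the whole pathway. Of the genes that carry propionyl-CoA to succinyl-CoA, the carboxylase subunits Pcca (-0.84, SE 0.14, adjusted p = 0.00422) and Pccb (-0.95, SE 0.096, adjusted p = 0.000792) were lower, as were Mcee (-0.54, SE 0.070, adjusted p = 0.00168) and Mmut (-0.56, SE 0.14, adjusted p = 0.0196). Neither Mcee (-0.087, adjusted p = 0.487) nor Mmut (-0.094, adjusted p = 0.529) passed with library totals alone.

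Over the 16 other genes of the pathway, 15 were tested, 14 were lower and 0 higher with edgeR, and 0 were higher at an unadjusted p under 0.05 or with DESeq2. Their median log2 fold change was -0.84 with TMM, -0.37 with library totals alone (8 lower, 0 higher) and -0.23 with the hepatocyte marker factors (4 lower and 1 higher, Dld). Bckdhb and Bckdk were the genes of the pathway whose log2 fold changes lay closest to that of the typical gene, at the 53.9th and 49.2nd percentile of all genes.

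**Figure D4:**
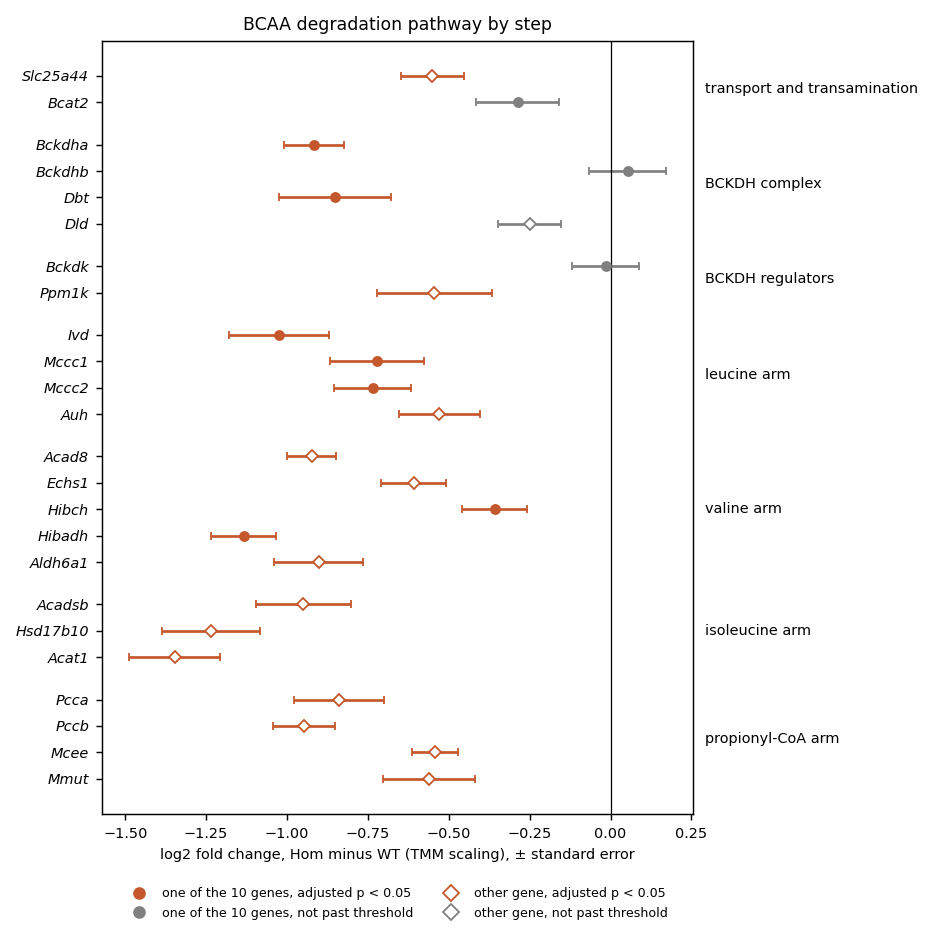
Log2 fold change (Hom minus WT, TMM scaling) with its standard error for the 10 genes (circles) and 14 other tested genes of the pathway (diamonds), grouped by step, orange where the adjusted p was under 0.05. Acat1 has the lowest value (-1.35), and Bckdhb (0.05) and Bckdk (-0.01) sit at 0.

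Levels of different genes were compared per gene length, in TPM. In WT livers Hibadh was highest at 291 ± 8.24 TPM (SD, n = 3), followed by Bckdha at 173 ± 9.54, Ivd at 90.0 ± 4.79 and Bckdhb at 81.9 ± 17.5 TPM. Mccc2 (46.5 ± 1.89), Hibch (44.0 ± 1.39), Dbt (38.4 ± 4.46), Bcat2 (26.7 ± 1.26) and Mccc1 (23.6 ± 2.38 TPM) followed, and Bckdk was lowest at 7.44 ± 1.00 TPM. Neighbours that overlapped between livers were Ivd and Bckdhb, Mccc2 and Hibch, and Bcat2 and Mccc1.

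In Hom livers the order of the TPM levels was Hibadh (205 ± 20.2), Bckdha (142 ± 9.67), Bckdhb (129 ± 8.75), Ivd (68.3 ± 5.06), Hibch (53.1 ± 3.82), Mccc2 (43.2 ± 0.730), Bcat2 (34.2 ± 2.49), Dbt (32.9 ± 1.47), Mccc1 (22.3 ± 1.18) and Bckdk (11.3 ± 0.470). Bckdhb thus moved above Ivd and close to Bckdha, with which it overlapped, as did Bcat2 with Dbt. TPM values carry no TMM correction, so that their differences between genotypes follow the library totals. They were used here for order and for ratios of 2 genes within a liver, which do not depend on the scaling between libraries. In both genotypes the order was identical in FPKM.

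**Figure D5:**
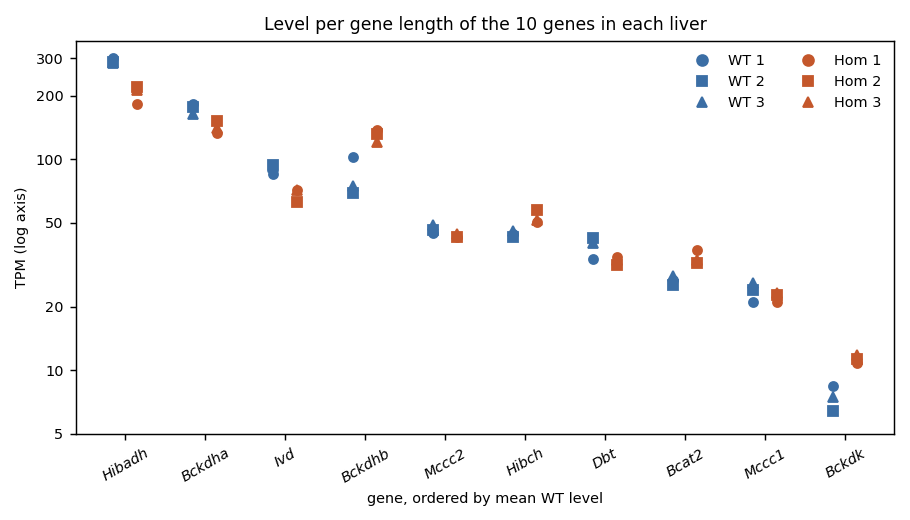
TPM of the 10 genes in each WT (blue) and Hom (orange) liver on a log axis, ordered by the WT mean. Hibadh is highest and Bckdk lowest in both genotypes, and Bckdhb changes its place relative to Ivd.

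Cofactor genes serve several of these enzymes, among them lipoate for Dbt, biotin for Mccc1 and the electron transfer flavoproteins for Ivd. Of 11 such genes, 6 were lower and 1 was higher, and their median log2 value was -0.39 (0.087 with library totals alone), between Etfdh (-1.10, adjusted p = 0.000759) and Lipt2 (1.46, adjusted p = 0.00669). The transcription factors Ppara (-1.30, adjusted p = 0.00159), Mlxipl (-1.05, adjusted p = 0.00274) and Klf15 (-1.10, adjusted p = 0.00408), which have been tied to BCAA genes, were all lower, and Mlxipl missed the threshold with the hepatocyte marker factors.

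Enzymes of the same families as the 10 genes, outside BCAA breakdown or shared with it, are given for comparison, and no difference between lists was tested. Of the 6 pyruvate and oxoglutarate dehydrogenase genes, which are built like BCKDH, 5 were lower (median -0.50, from Pdhb at -0.72 to Ogdh at -0.36). With library totals alone 1 was lower (median -0.039), and with the hepatocyte marker factors 0 were lower. Of 7 genes for kinases and phosphatases of pyruvate dehydrogenase, relatives or counterparts of Bckdk and Ppm1k, 3 were lower and 1 higher (median -0.30, and 0.16 with library totals alone), from Pdk1 at -1.31 (adjusted p = 0.00285) to Pdp1 at 1.93 (adjusted p = 0.00624). Of 10 acyl-CoA dehydrogenases, the family of Ivd, 9 were lower (median -0.92, and 7 lower with a median of -0.46 with library totals alone), from Gcdh at -1.22 to Acad9 at -0.16 (adjusted p = 0.539). Of 5 other biotin carboxylase genes, 2 were lower, Pcca and Pccb as given above (median -0.78, and -0.30 with library totals alone), and 4 were lower with DESeq2. The values ran from Pccb to Acaca at 0.15 (adjusted p = 0.379).

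Of 33 tested genes for the breakdown of other amino acids, 22 were lower, with a median of -0.73, from Tat at -1.37 (adjusted p = 0.0187) to Sdsl at 0.61 (adjusted p = 0.225). Of 15 genes of the tricarboxylic acid cycle, 10 were lower, with a median of -0.60, from Sdha at -0.84 to Idh3a at 0.45 (adjusted p = 0.0787). With library totals alone these medians were -0.28 and -0.14, with 10 and 5 genes lower and 2 and 1 higher. The share of lower genes and the median among the 10 BCAA genes (70% and -0.73) were thus near those of other amino acid breakdown (66.7% and -0.73).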

How the data were processed

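Liver RNA of 3 WT and 3 Hom mice was sequenced on the DNBSEQ platform. The submitters' processing notes name HISAT2 2.0.4, Bowtie2 2.2.5, RSEM 1.2.12 and mm9; annotation and strandedness are not given in the sources used here. The authors deposited estimated counts per gene and liver, not scaled between livers, with FPKM and TPM values that the authors divided by gene length and library size. Deposited group means carried crossed names for all 17975 genes and were not used.

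Estimated counts (65.9% whole within 0.005) were rounded before use. The quasi-likelihood test of edgeR 4.0.16 (R 4.3.3) was run on the 13805 genes left by filterByExpr, with scaling by TMM, where glmQLFit and glmQLFTest compared Hom with WT (Benjamini-Hochberg adjusted p under 0.05, no minimum fold change). CPM values are TMM-normalized. P-values measure the spread between these mice. FPKM served to recover gene lengths and the order of genes. Among the 10 genes, counts were whole in all livers for 5 and in no liver for 3 (Bcat2, Dbt and Bckdk). They were whole in 1 liver for Bckdhb and in 5 livers for Mccc1. Reads behind fractional counts were shared between genes or transcripts. The levels of Bcat2, Dbt, Bckdk and Bckdhb, and that of Mccc1 in the remaining liver, thus carry the uncertainty of that division. Rounded counts of the 10 genes were 209 to 5767 per liver. Standard errors were derived from the fold change and the F statistic. On simulated data, 65% of 200 genes changed by 1 log2 unit were recovered, and 0.0541% of unchanged genes were called (13143 genes, Hom against WT). Only these 200 genes differed there, in random directions, whereas 41.7% of tested genes were called in the data. The simulation therefore cannot show how the scaling of the libraries affects the calls. Ratios used exact permutation tests.

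The genes named were the 10 genes, the other pathway genes (1 of which was counted but is not reported here), Nek7 and, in each further list, the genes with the largest and smallest log2 fold change. The 10 genes and all lists were chosen with earlier results of these data known. In all, 2 symbols in the lists were matched by synonym. Alternatives were DESeq2 1.42.0, other scalings and filters, a replicate block, a loess correction for gene length, a minimum fold change and leaving out each liver. WT and Hom livers share replicate numbers but are different mice. Promoter sequences are from RefSeq (GRCm38.p6), a build other than that of the counts, and were matched by symbol for 9 of the 10 genes.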

Additional observations from a re-analysis of the deposited data

How the results depend on the processing

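With library totals alone, 642 genes of all tested were lower and 6574 higher (2780 and 2974 with TMM), 91.1% of the calls being higher, against 51.7% with TMM; 2 of the 10 BCAA genes were higher, and 8 other pathway genes were lower. With the hepatocyte marker factors these numbers were 461, 8469 and 94.8%, with 3 of the 10 genes lower and 2 higher, and 4 other pathway genes lower and 1 higher. Upper-quartile factors made 62.8% of calls higher. With a minimum absolute log2 fold change of 1, 575 genes were lower and 1825 higher, with 2 of the 10 genes and 2 other pathway genes lower. Leaving out each liver in turn gave 1767 to 2750 genes lower and 1986 to 3057 higher, with the lowest counts of lower genes without Hom replicate 3 (1767) and Hom replicate 2 (1829), which leave fewer samples. Between 6 and 8 of the 10 genes and 11 to 15 of the other pathway genes were then lower, and 0 were higher in either list.

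Single fold changes turned sign as follows. Bcat2 was 0.16 with library totals and 0.31 with hepatocyte marker factors, and Hibch 0.10 and 0.25. Bckdk was 0.076 with upper-quartile factors, 0.44 with library totals, 0.58 with hepatocyte marker factors, 0.032 when all livers needed 10 counts or more, 0.033 without WT replicate 3 and 0.025 without Hom replicate 2. Bckdhb was -0.0072 without WT replicate 2 and -0.059 without Hom replicate 1 (highest 0.13 when leaving out each liver; for Bckdk the range was -0.071 to 0.033). The log2 ratio difference of Mccc1 to Mccc2 was -0.027 without WT replicate 1, at most 0.064 without any other liver. The causes were not tested. Bckdhb with the hepatocyte marker factors was 0.65 (adjusted p = 0.00311), and Bckdk had an adjusted p of 0.00744. Bckdha, Ivd and Hibadh were lower under each setting other than the minimum fold change, which Bckdha did not reach.

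The replicate numbers did not pair the livers: same-numbered deviations correlated at -0.079, -0.039 and -0.018. With a replicate block 2214 genes were lower and 2383 higher, among them 6 of the 10 genes lower (Hibch missed the threshold, adjusted p = 0.0643) and 14 other pathway genes. The smallest count among the 10 genes was 209, and the effect of depth or of the number of livers was not tested.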
